A study of Mus musculus with 8 samples.

Results

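The cytochrome P450 (Cyp), carboxylesterase (Ces), UDP-glucuronosyltransferase (Ugt) and sulfotransferase (Sult) genes of mouse skin were followed by the symbols in the array files: any Cyp gene with a family number, a subfamily letter and a member number, any numbered Ces gene, and the Ugt and Sult genes of families 1 and 2. These names held 95 genes, read by 137 probes, of 27740 genes and unnamed probes on the array. The 95 were 70 Cyp, 6 Ces, 11 Ugt and 8 Sult genes. Each gene is given by its brightest probe on average over the 8 arrays. Dorsal skin came from 19-week-old male SKH-1 mice, a hairless strain, whose backs had all received UVB for 10 weeks. The enalapril group is 4 samples of skin given 100 µl of 1% w/v enalapril maleate in 30 vol % ethanol, 5 times a week for 2 weeks, from 1 week after UVB had ended. The vehicle group is 4 samples of skin given the ethanol solution on the same schedule, so irradiation, strain and ethanol were shared by both groups. Treatment for 6 weeks and groups of 6 mice appear in the series text but not in the sample labels. The labels do not say whether a sample pooled animals.

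P450s are haem enzymes that add an oxygen atom to drugs, steroids, vitamins and fatty acids, with electrons from the reductase encoded by Por or, in mitochondria, from ferredoxins. Ugt and Sult enzymes then join glucuronic acid or sulfate to the product. Carboxylesterases cut ester bonds, and enalapril is an ester prodrug that they turn into enalaprilat, the inhibitor of angiotensin-converting enzyme. Skin uses the same families for its own lipids, retinoids and vitamin D.

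RNA was hybridised to one-colour Agilent arrays. Between 67.1% and 72.7% of non-control spots per array were well above background by the scanner software's flag, and no spot was saturated. Slide 2 and scan 2 held the 4 enalapril arrays, and slide 1 and scan 1 the 4 vehicle arrays, so treatment, slide and scan cannot be told apart in any result below. The median background around spots was 48 to 52 units of intensity on enalapril arrays and 57.5 to 66 on vehicle arrays. A level below is the log2 of a probe's processed intensity minus the 75th percentile of its array, and a log2 change is the enalapril mean minus the vehicle mean with limma's standard error (SE). A gene was tested where 4 or more of the 8 arrays had it well above background, and was called at a Benjamini-Hochberg adjusted p under 0.05 over all 19100 genes tested. With 1 array left out, 4.48% to 26.1% of all genes were called, against 14.2% with all 8 arrays. The highest share came without enalapril 4, and every other such fit called a smaller share than the full set. Whole skin was measured, so fewer cells of a type and less RNA per cell cannot be told apart. Skin markers matched the tissue: all 6 basal and all 7 suprabasal keratinocyte markers measured were tested and none was called. Of 8 skeletal muscle markers 3 fell, with a mean level of 5.18 to 5.31 on enalapril arrays and 5.36 to 6.23 on vehicle arrays. Of 8 adipocyte markers 4 fell, with mean levels of 3.29 to 3.75 on enalapril arrays and 3.87 to 4.02 on vehicle arrays. Over all genes tested, 9.85% were called lower. Bright genes fell more often: 668 of the 3820 with a mean level from 1.92 to 8.76 were called lower. Those 3820 had a median change of -0.19, and every called marker of muscle or fat lay in their range. Median changes were -0.68 for the muscle markers and -0.48 for the adipocyte markers. Whether these markers differed from other bright genes was not tested. The part of either tissue in the results below was not tested.

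Of the 95 genes, 61 could be tested. Among these, Cyp2c55, Cyp1b1, Cyp1a1 and Cyp2j11 rose with enalapril and Ces2 (now named Ces2c) fell. The 5 genes called are 8.20% of those tested, against 14.2% of all genes on the array. The 4 that rose are 6.56%, against 4.32% of all genes, and the single fall is 1.64%, against 9.85%. Cyp2c55 entered the test only through the group in which it was high. Among genes well above background on all 8 arrays, which leaves it out, 3 of 57 rose and 1 fell, against 701 and 1753 of 17610 genes on the array. Groups did not overlap for 7 of the 61 genes, or 11.5%, against 22.0% of all genes. The share called was thus not above the background of the array, and the log2 changes were mostly small. They ran from -0.88 to 1.82 with a median of -0.07, beside a median of -0.08 for all genes tested, and 49 of the 61 stayed within 0.5 of 0. Positive changes numbered 27 and negative ones 34.

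**Figure D1:**
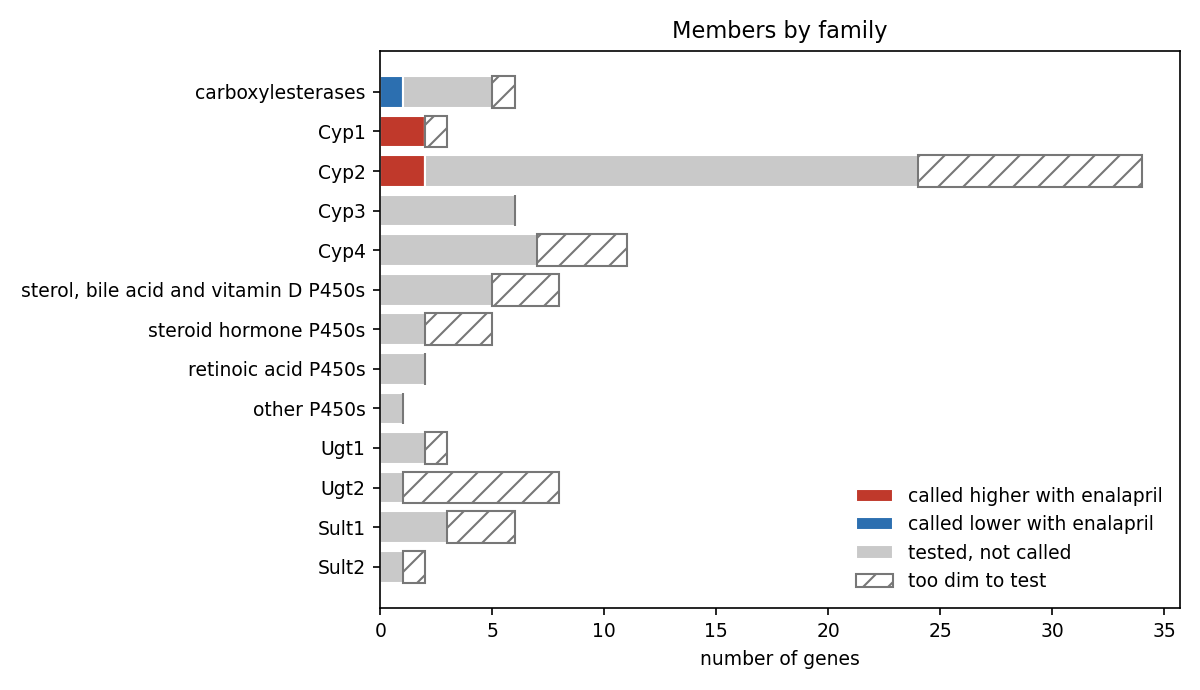
Number of genes per family (horizontal axis, count) by outcome: called higher with enalapril (red), called lower (blue), tested and not called (grey) and too dim to test (hatched). Calls lie in Cyp1 (2 of 3 genes), Cyp2 (2 of 34) and the carboxylesterases (1 of 6), and 7 of 8 Ugt2 genes were too dim to test. Of all genes tested, 14.2% were called.

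**Figure D2:**
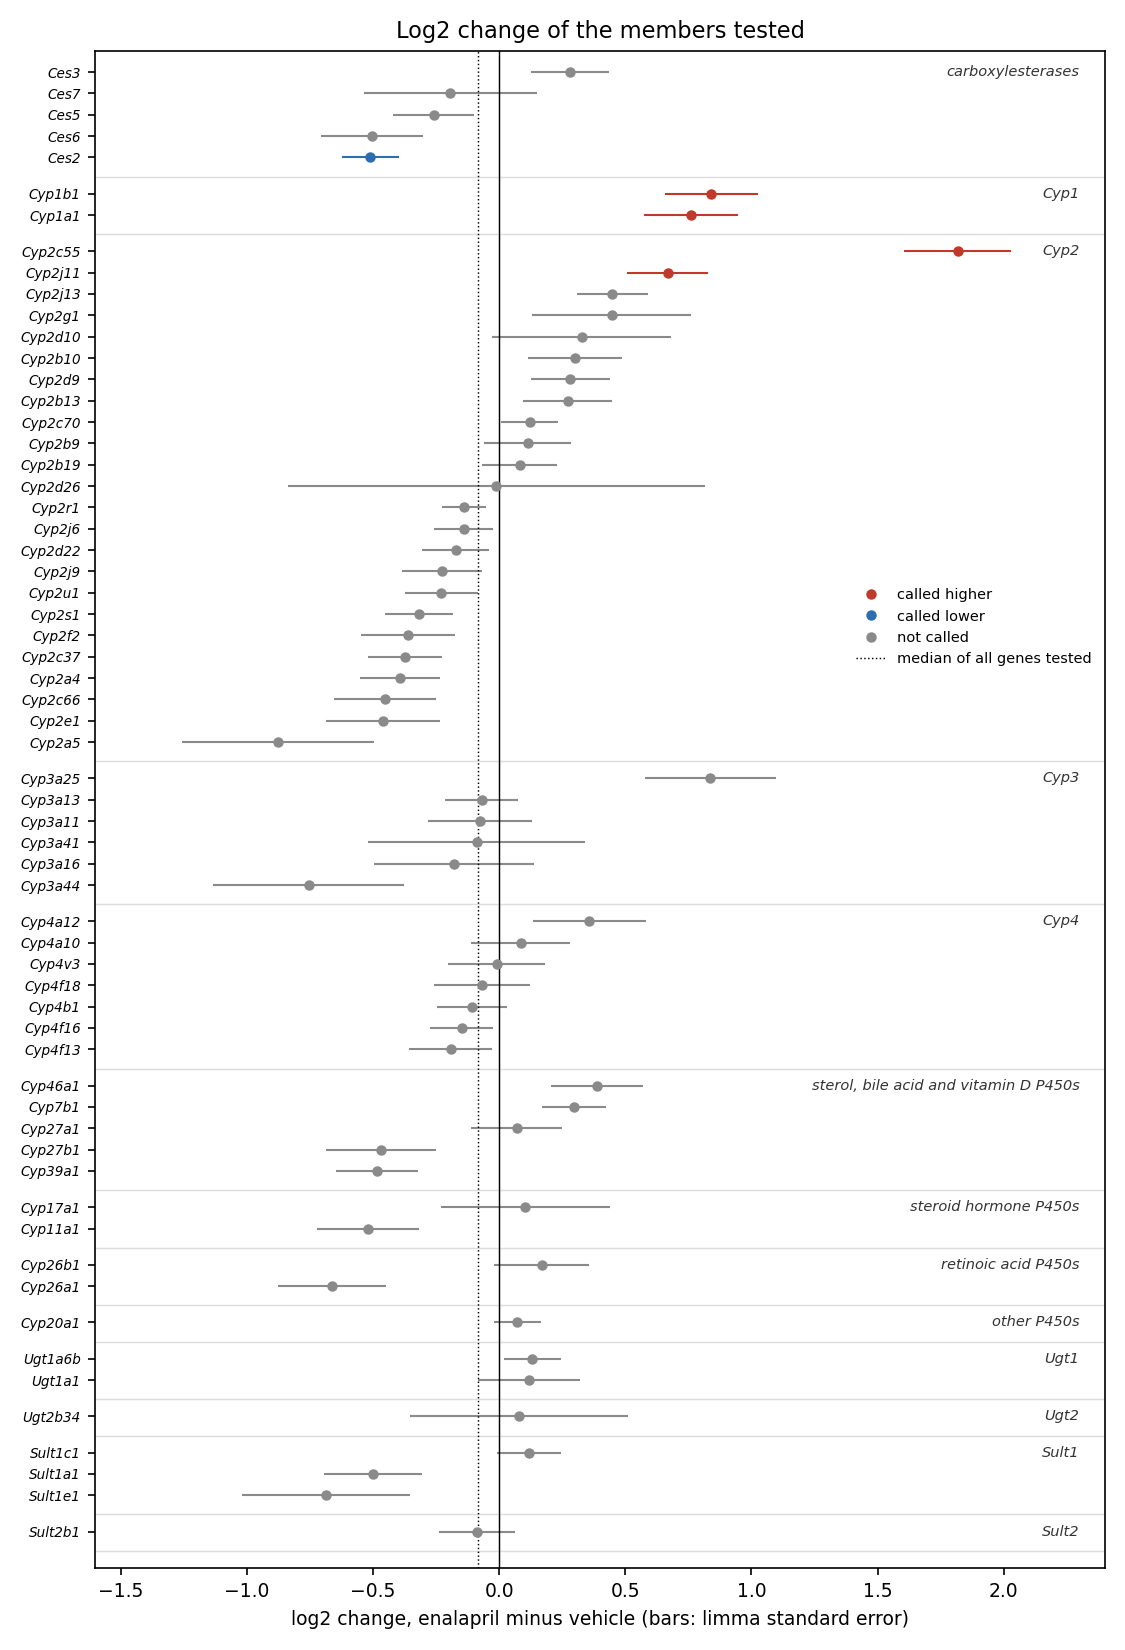
Log2 change (enalapril minus vehicle, horizontal axis) of the 61 genes tested, grouped by family, with limma's standard error as bars, genes called higher in red, called lower in blue and not called in grey. Cyp2c55 stands at 1.82 and Ces2 at -0.51, while most points lie near the dotted median of all genes at -0.08.

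The letters upstream of 4 of the called genes are shown because they differ in a motif that the receptor for aromatic compounds is known to bind. Each line holds the 250 bases before the annotated start in RefSeq (GRCm38.p6), 5′ to 3′ on the gene's own strand, and capitals mark GCGTG on that strand or CACGC where it lies on the other. The windows are chr9:57697363-57697612 on the plus strand for Cyp1a1, chr17:79715062-79715311 on the minus strand for Cyp1b1, chr19:39006769-39007018 on the plus strand for Cyp2c55 and chr8:104846818-104847067 on the plus strand for Ces2c.
Cyp1a1: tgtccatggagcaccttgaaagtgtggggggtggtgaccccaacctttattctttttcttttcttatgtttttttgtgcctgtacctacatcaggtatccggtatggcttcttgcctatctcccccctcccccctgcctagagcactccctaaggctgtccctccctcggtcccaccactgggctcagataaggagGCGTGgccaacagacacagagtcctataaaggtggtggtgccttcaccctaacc
Cyp1b1: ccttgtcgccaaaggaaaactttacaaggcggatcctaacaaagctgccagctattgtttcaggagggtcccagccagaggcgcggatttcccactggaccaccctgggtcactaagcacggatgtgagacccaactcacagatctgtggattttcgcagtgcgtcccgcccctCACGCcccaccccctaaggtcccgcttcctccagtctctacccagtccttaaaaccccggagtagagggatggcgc
Cyp2c55: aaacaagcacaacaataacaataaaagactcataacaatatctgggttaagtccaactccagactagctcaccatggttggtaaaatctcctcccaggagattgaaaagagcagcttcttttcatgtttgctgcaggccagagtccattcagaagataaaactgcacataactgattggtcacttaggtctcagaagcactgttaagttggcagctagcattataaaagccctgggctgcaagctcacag
Ces2c: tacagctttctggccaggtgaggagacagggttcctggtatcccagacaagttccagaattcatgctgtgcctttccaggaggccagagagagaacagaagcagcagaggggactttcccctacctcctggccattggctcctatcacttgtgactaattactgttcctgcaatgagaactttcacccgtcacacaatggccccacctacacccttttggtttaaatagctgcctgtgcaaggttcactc
GCGTG is the core of the xenobiotic response element and was searched on both strands. It lay 54 bases before the start in Cyp1a1 and 76 in Cyp1b1, once in each, and in neither of the other windows nor in that of Cyp2j11. Windows were found for 75 of the 95 genes, and 13 of them (17.3%) held it, against 30.9% of 27025 genes with a window. Of the 10 tested genes with a match, the 2 called, both higher, were Cyp1a1 and Cyp1b1 themselves, whose windows are shown for that match, beside 4.32% higher and 9.85% lower over all genes. Changes were positive in 6 of the 10 and negative in 4. The D-box, bound by the clock factors Dbp, Tef and Hlf, was searched as TTACATAA or TTACGTAA, which cannot overlap the first motif. It occurred in Ces1 and Ugt2b1, or 2.67% of the windows, against 1.1% of all genes, and neither of these 2 genes could be tested. A match of so few letters describes the window and is no measured binding site.

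Among the carboxylesterases, Ces2 (Ces2c), an esterase of the endoplasmic reticulum, fell, and none of the other 4 tested was called. Of all genes, 9.85% were called lower and 4.32% higher. Ces2 had levels of -5.45, -5.61, -5.30 and -5.54 with enalapril, against -4.91, -4.97, -5.17 and -4.82 with vehicle. Every enalapril array lay below every vehicle array. The change was -0.51 ± 0.11 (SE, 4 arrays per group; adjusted p = 0.0251), and all 8 arrays were well above background. Ces2 is a dim probe. It lost its call without enalapril 1 or 2 or vehicle 1, 2 or 4 (adjusted p up to 0.0707), and its sign turned to 0.73 and 0.04 with normexp background correction, as usually run and with outlying local backgrounds repaired. It kept its call in 8 of 15 other settings, which include an adjusted p under 0.10, where no call can be lost.

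Ces3, whose current name is Ces1d and which hydrolyses triacylglycerol in liver and fat, is of the group related to human CES1, the liver enzyme known to activate enalapril. Its levels were 1.50, 1.37, 1.30 and 1.68 with enalapril, against 0.84, 1.13, 1.52 and 1.24 with vehicle. The groups overlapped through vehicle 3, and the change of 0.28 ± 0.16 was not called (adjusted p = 0.247). Ces6 (Ces2a) stood at -4.87, -5.17, -5.63 and -5.23 with enalapril, against -4.41, -4.51, -4.86 and -5.10 with vehicle, a change of -0.50 ± 0.20 (adjusted p = 0.125). Ces5 (Ces2e) differed by -0.26 ± 0.16 (adjusted p = 0.295). Ces7 (Ces5a), which encodes an esterase abundant in cat urine, was well above background on 3 enalapril and 2 vehicle arrays and differed by -0.19 ± 0.34 (adjusted p = 0.734). Ces1 (Ces1g) was not tested: it was well above background on none of the enalapril arrays and on vehicle 1 and vehicle 2, whose levels of -4.80 and -5.75 stood above the other 6 arrays.

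The array files name other carboxylesterases by clone or older symbols, so that they fall outside the naming rule. By current symbols, 15 genes of these families were named otherwise in the files, of which 10 were tested, 1 was called lower and none higher. That single call is a share near the 9.85% of all genes called lower, beside 4.32% called higher. The one called was Ces1e (Es22 in the files), also known as egasyn, which holds beta-glucuronidase in the endoplasmic reticulum. Its levels were -5.87, -6.21, -5.32 and -5.93 with enalapril, against -4.93, -4.75, -4.92 and -5.32 with vehicle, a change of -0.85 ± 0.20 (adjusted p = 0.0284). The groups met without overlapping at enalapril 3 and vehicle 4, and the call was lost without enalapril 1 or 2 or vehicle 1, 2 or 3 (adjusted p up to 0.074). Values of the remaining carboxylesterases, named here after they were seen, complete the gene clusters. Ces2f differed by -0.80 ± 0.24 (adjusted p = 0.0613), Ces1f by -0.59 ± 0.27 (adjusted p = 0.172) and Ces2b by -0.31 ± 0.20 (adjusted p = 0.323). Ces2g differed by -0.29 ± 0.11 (adjusted p = 0.120) and Ces4a by 0.23 ± 0.16 (adjusted p = 0.354). The Ces1 genes and the Ces2 genes lie in 2 clusters on chromosome 8, with neighbours within 1 Mb. All 6 Ces2 genes tested had a negative change, from -0.80 to -0.26 and below the median of all genes, but with normexp correction 5 of the 6 were positive and with its repaired form Ces2a and Ces2c were. Paralogs of a cluster have similar letters, and whether a probe reads more than one of them is not given in the sources used here.

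**Figure D3:**
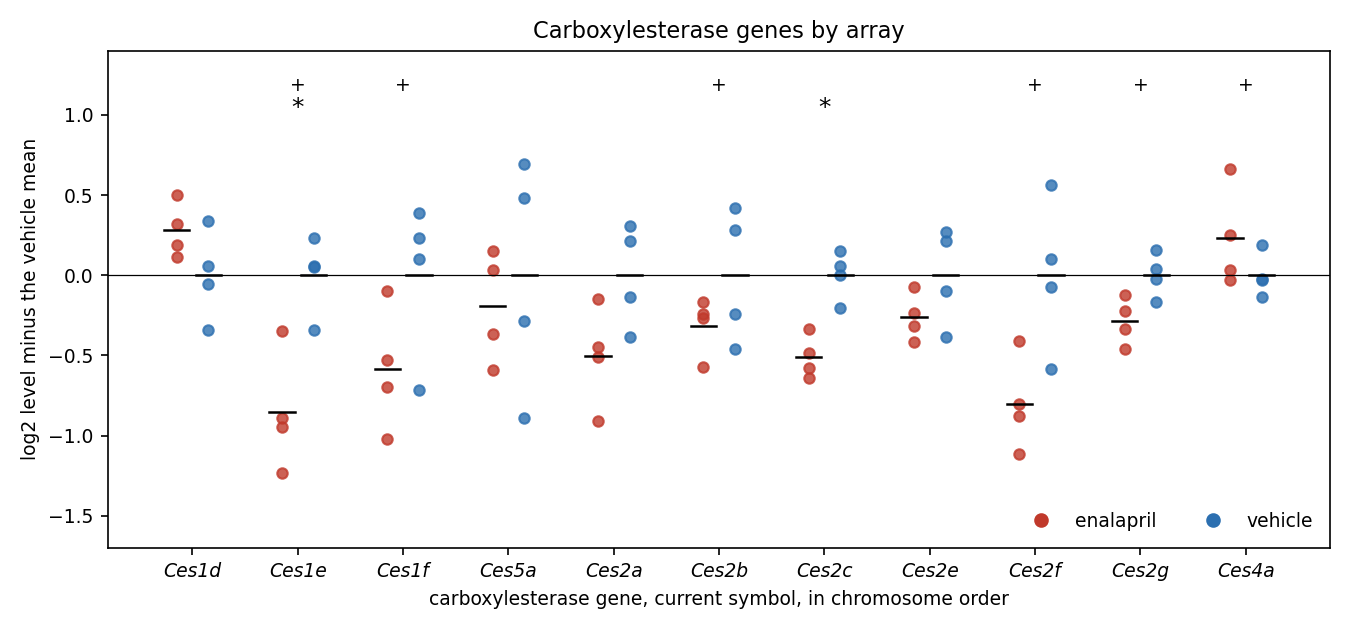
Level of each tested carboxylesterase gene on every array, as log2 difference from the vehicle mean of its own probe (vertical axis), in chromosome order with enalapril in red left of vehicle in blue and bars at group means. Stars mark the 2 genes called (Ces1e and Ces2c), plus signs mark genes named otherwise in the files, and the enalapril means of the 6 Ces2 genes lie below their vehicle means in this scaling, which normexp correction turned for 5 of them.

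Both tested Cyp1 genes rose, beside 4.32% of all genes called higher and 9.85% called lower. Cyp1a1 and Cyp1b1 oxidise polycyclic aromatic hydrocarbons, Cyp1b1 also oestrogens, and both are textbook targets of the aryl hydrocarbon receptor (Ahr). Cyp1b1 had levels of 0.63, 0.03, 0.15 and 0.63 with enalapril, against -0.34, -0.20, -0.68 and -0.70 with vehicle, all enalapril arrays being above all vehicle arrays. The change was 0.84 ± 0.18 (adjusted p = 0.0247), 1.79-fold. Cyp1a1 had levels of 0.31, 0.37, 0.09 and 0.62 with enalapril, against -0.37, -0.37, -0.87 and -0.02 with vehicle. Here too the groups did not overlap, with enalapril 3 and vehicle 4 nearest to each other. The change was 0.76 ± 0.19 (adjusted p = 0.0334), 1.69-fold. Before scaling between arrays the groups overlapped: the processed intensity of Cyp1a1 was 1330, 1140, 875 and 1350 with enalapril, against 689, 1190, 840 and 870 with vehicle. Without scaling, as in the deposited series matrix, the changes were 0.48 for Cyp1b1 (adjusted p = 0.273) and 0.39 for Cyp1a1 (adjusted p = 0.352).

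The Cyp1b1 call was lost without enalapril 1 or vehicle 1, 3 or 4 (adjusted p up to 0.0635), and the Cyp1a1 call without enalapril 1, 2 or 3 or vehicle 1 or 2 (adjusted p up to 0.0794). Over all settings run, the change stayed positive for both, from 0.31 to 0.95 for Cyp1b1 and from 0.39 to 0.89 for Cyp1a1. Each kept its call in 10 of 15 settings other than leaving out an array, which include an adjusted p under 0.10, where no call can be lost. The value of 0.31 (adjusted p = 0.654) came from averaging Cyp1b1 with a second probe that was well above background on 3 arrays. Cyp1a2, the relative of Cyp1a1 that is abundant in liver, was well above background on none of the 8 arrays. The receptor gene Ahr had levels of 2.10, 1.72, 1.53 and 1.72 with enalapril, against 1.34, 1.54, 1.27 and 1.09 with vehicle. Enalapril 3 and vehicle 2 met, and the change of 0.46 ± 0.15 was not called (adjusted p = 0.0702). Other genes of that pathway, named after their values were seen, were not called: the receptor's repressor Ahrr differed by -0.38 ± 0.18 (adjusted p = 0.179), its partner Arnt by 0.21 ± 0.11 (adjusted p = 0.228) and its target Tiparp by -0.05 ± 0.18 (adjusted p = 0.887).

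**Figure D4:**
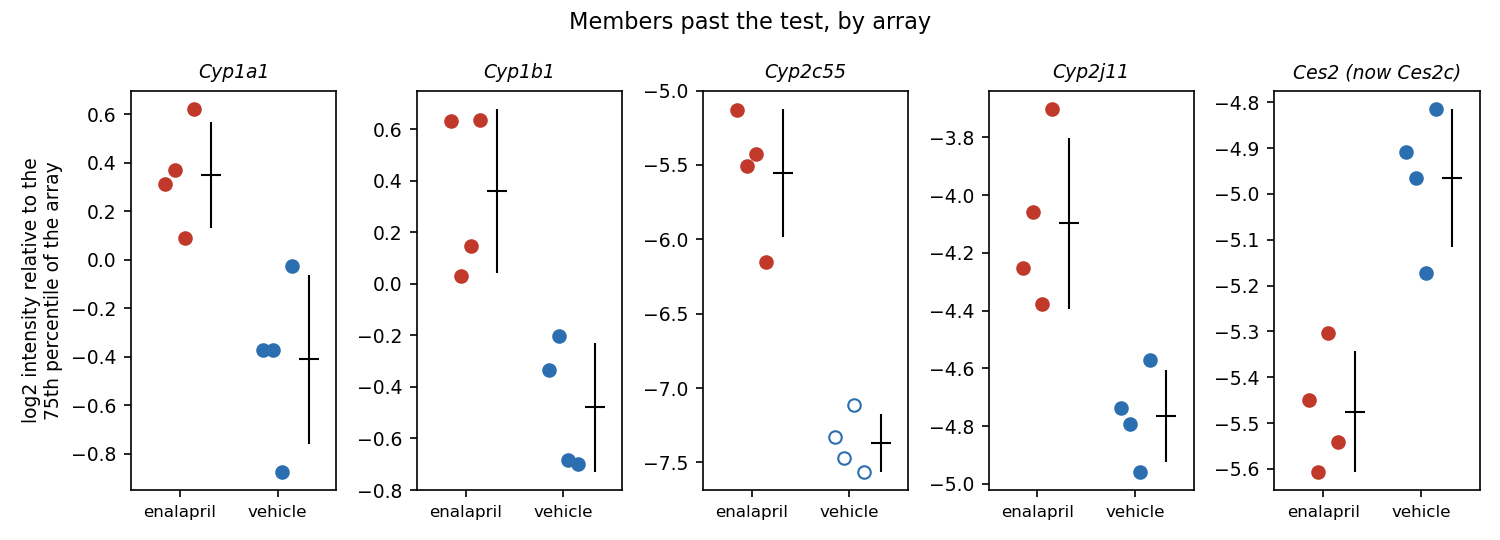
Levels (log2 intensity relative to the array's 75th percentile, vertical axes differing between panels) of the 5 genes past the test, with 4 enalapril arrays left in red and 4 vehicle arrays right in blue, and the mean with SD as a bar. Open circles are arrays on which the probe was not well above background, which for Cyp2c55 are all 4 vehicle arrays, and the groups overlap in none of the 5 panels.

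The Cyp2 family, the largest with 34 genes, had 24 tested, of which 2 rose and none fell, beside 4.32% and 9.85% of all genes. Cyp2c55 makes hydroxylated products of arachidonic acid in the mouse. Its probe was well above background on all 4 enalapril arrays and on none of the vehicle arrays, and it was the one gene of the 95 that entered the test through 1 group alone, so that it had to differ. Levels were -5.13, -5.51, -5.43 and -6.15 with enalapril, against -7.33, -7.47, -7.12 and -7.56 with vehicle. The processed intensities behind them were 30.6, 19.4, 19.1 and 12.3 with enalapril, against 5.54, 8.67, 11.1 and 4.68 with vehicle. In this scaling Cyp2c55 read 3.52-fold higher with enalapril, against the higher of the dimmest detected signal and the probe's own on each vehicle array. The probe's own was the higher on all 4, so this value equals the fitted fold and is not a lower limit. The fitted change was 1.82 ± 0.21 (adjusted p = 0.0063). That p is no support for the difference, given how the gene entered the test, and without any 1 enalapril array it did not pass the filter. With repaired normexp correction the log2 change was 0.59 (adjusted p = 0.0515), smaller than the fitted 1.82. Of the other genes of the Cyp2c cluster on chromosome 19, Cyp2c66, Cyp2c37 and Cyp2c70, named after their values were seen, were tested and not called.

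Cyp2j genes encode epoxygenases of arachidonic acid and lie together on chromosome 4. Cyp2j11 had levels of -4.25, -4.06, -4.38 and -3.70 with enalapril, against -4.74, -4.79, -4.96 and -4.57 with vehicle. All enalapril arrays were higher than all vehicle arrays, and the change was 0.67 ± 0.16 (adjusted p = 0.0303). Before scaling between arrays the groups overlapped. The processed intensities were 56.1, 52.9, 39.5 and 67.4 with enalapril, against 33.4, 55.6, 49.5 and 37.2 with vehicle. In the series matrix, which is not scaled, the gene was not called. The call was lost without enalapril 1 or 2 or any vehicle array (adjusted p up to 0.0761). It stood in 7 of 15 other settings, which include an adjusted p under 0.10, where no call can be lost. A second probe for Cyp2j11 was well above background on 2 arrays and was not tested, and when both were averaged the change was -0.42 (adjusted p = 0.464). Cyp2j13 had levels of -1.14, -0.97, -1.10 and -0.77 with enalapril, against -1.66, -1.44, -1.54 and -1.13 with vehicle, and was not called (0.45 ± 0.14, adjusted p = 0.0646), its change being -0.34 when its 3 probes were averaged. Without vehicle 4 it was called (adjusted p = 0.0479). Cyp2j6 and Cyp2j9 of the same cluster differed by -0.14 ± 0.12 and -0.23 ± 0.16, named after their values were seen. The 4 tested genes of this cluster thus had 2 positive and 2 negative changes.

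Other Cyp2 genes with known roles in skin or with ethanol were not called. Cyp2b19, an arachidonic acid epoxygenase of mouse keratinocytes, had levels of -0.04, 0.09, 0.22 and 0.51 with enalapril, against -0.09, 0.19, 0.00 and 0.35 with vehicle, the groups lying over each other (0.08 ± 0.15, adjusted p = 0.743). Cyp2r1, a 25-hydroxylase of vitamin D, had levels of -3.38, -3.33, -3.42 and -3.35 with enalapril, against -3.19, -3.30, -3.30 and -3.12 with vehicle. These did not overlap, yet the change was small and not called (-0.14 ± 0.09, adjusted p = 0.306). The following were named after their values were seen. Cyp2e1, which oxidises ethanol, a solvent that both groups received, differed by -0.46 ± 0.23 (adjusted p = 0.198). Cyp2c37 lay lower on every enalapril array, from -5.08 to -4.48, than on any vehicle array, from -4.47 to -4.18, without a call (-0.37 ± 0.15, adjusted p = 0.118). A second Cyp2c37 probe, well above background on 7 arrays, read -0.11 ± 0.22 (adjusted p = 0.779 with every probe tested). Cyp2a5, which hydroxylates coumarin, had the most negative change of the 61 genes, -0.88 ± 0.38 (adjusted p = 0.151). Cyp2d26 had the widest spread, with levels of -1.37, -2.44, -4.96 and -2.05 with enalapril, against -4.50, -2.05, -2.18 and -2.04 with vehicle. One low array in each group, enalapril 3 and vehicle 1, set that spread. Cyp2d10 shared both, with levels of -3.78, -4.59, -5.30 and -4.27 with enalapril, against -5.62, -4.50, -4.53 and -4.58 with vehicle (0.33 ± 0.36, adjusted p = 0.562). A second Cyp2d10 probe, well above background on 5 arrays, read -1.01 ± 0.19 (adjusted p = 0.0208 with every probe tested), the opposite sign. Of 13 genes with more than 1 tested probe, 11 had probes of one sign and 2 of both.

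All 6 Cyp3 genes, which oxidise many drugs and steroids, were tested and none was called. Cyp3a25 had levels of -0.91, -0.15, -0.34 and 0.18 with enalapril, against -0.58, -1.28, -1.42 and -1.29 with vehicle. Vehicle 1 stood apart from the other vehicle arrays and above enalapril 1. The change was 0.84 ± 0.26 (adjusted p = 0.0646), as large as that of Cyp1b1 but with a wider spread, and a second probe read 1.05 ± 0.33 (adjusted p = 0.0742 with every probe tested). Without enalapril 1 the gene was called (adjusted p = 0.0466). Cyp3a44 was well above background on 4 arrays and differed by -0.75 ± 0.38 (adjusted p = 0.207), with levels of -5.17, -6.71, -6.78 and -7.17 with enalapril, against -5.89, -5.65, -5.68 and -5.57 with vehicle. Cyp3a16 differed by -0.18 ± 0.32 (adjusted p = 0.734). On 5 genes of the Cyp3a cluster of chromosome 5, 1 change was positive and 4 were negative.

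The Cyp4 family, which hydroxylates the far end of fatty acids, had 7 of 11 genes tested and none called. The smallest p-values belonged to Cyp4a12, Cyp4f16 and Cyp4f13. Cyp4a12 differed by 0.36 ± 0.22 (adjusted p = 0.307), Cyp4f16 by -0.15 ± 0.12 (adjusted p = 0.442) and Cyp4f13 by -0.19 ± 0.16 (adjusted p = 0.450). Without enalapril 4, Cyp4f16 (-0.26, adjusted p = 0.049) and Cyp4f13 (-0.35, adjusted p = 0.04) were called, in a fit that called 26.1% of all genes. Changes in this family ran from -0.19 to 0.36. Cyp4f39, named by a clone symbol in the files, is the mouse counterpart of human CYP4F22, which acts on the very long fatty acids of barrier ceramides. Its levels were 0.91, 1.18, 1.32 and 1.12 with enalapril, against 0.66, 0.81, 1.11 and 0.81 with vehicle. The groups overlapped through vehicle 3 (0.29 ± 0.13, adjusted p = 0.167).

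P450s of sterols, bile acids and vitamin D numbered 8, of which 5 were tested and none called. Cyp39a1, which hydroxylates 24-hydroxycholesterol, had levels of -1.53, -1.39, -1.20 and -1.49 with enalapril, against -1.06, -0.70, -1.28 and -0.62 with vehicle (-0.48 ± 0.16, adjusted p = 0.0794). Vehicle 3 alone lay within the enalapril range, and without it the gene was called (adjusted p = 0.0414). Cyp7b1, the oxysterol hydroxylase, differed by 0.30 ± 0.13 (adjusted p = 0.146) and Cyp46a1, the cholesterol 24-hydroxylase, by 0.39 ± 0.18 (adjusted p = 0.183; named after its value was seen). Cyp27b1 makes the active form of vitamin D. Its levels were -4.34, -3.99, -4.82 and -3.88 with enalapril, against -3.52, -4.11, -3.71 and -3.82 with vehicle, overlapping through vehicle 2 (-0.47 ± 0.22, adjusted p = 0.176). Cyp27a1, the sterol 27-hydroxylase, differed by 0.07 ± 0.18 (adjusted p = 0.822). Cyp24a1, which breaks down vitamin D, and Cyp7a1 and Cyp8b1 of hepatic bile acid synthesis were well above background on no array.

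Of the 5 steroid hormone P450s, 2 were tested and neither was called. Cyp11a1, which cuts the cholesterol side chain in the first step of steroid synthesis, had levels of -1.91, -2.58, -2.46 and -1.89 with enalapril, against -2.04, -1.57, -1.41 and -1.73 with vehicle. Enalapril 1 and 4 lay within the vehicle range (-0.52 ± 0.20, adjusted p = 0.117), and a second probe read -0.60 ± 0.24 (adjusted p = 0.130 with every probe tested). Cyp17a1, the 17-hydroxylase, differed by 0.10 ± 0.34 (adjusted p = 0.860). Both retinoic acid hydroxylases were tested. Cyp26a1 had levels of -5.63, -5.26, -5.80 and -5.47 with enalapril, against -4.42, -5.04, -5.39 and -4.67 with vehicle, overlapping through vehicle 3 (-0.66 ± 0.21, adjusted p = 0.0724). Without vehicle 3 it was called (adjusted p = 0.0371). Cyp26b1 had levels of 3.03, 2.35, 2.63 and 2.25 with enalapril, against 2.12, 2.68, 2.39 and 2.39 with vehicle, and showed no separation (0.17 ± 0.19, adjusted p = 0.574). Cyp20a1, the only gene outside these families, differed by 0.07 ± 0.09 (adjusted p = 0.629).

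Conjugating enzymes had no call in 7 genes tested. Ugt1a6b, which glucuronidates phenols, had levels of 4.62, 4.72, 4.50 and 4.75 with enalapril, against 4.57, 4.70, 4.29 and 4.50 with vehicle, the groups sharing most of their range (0.13 ± 0.11, adjusted p = 0.458). A second probe for Ugt1a6b was well above background on 1 array and was not tested. Ugt1a1, the bilirubin transferase, differed by 0.12 ± 0.20 (adjusted p = 0.724). Ugt2b34, the single Ugt2 gene tested, differed by 0.08 ± 0.43 (adjusted p = 0.922). Sult1a1, a phenol sulfotransferase, had levels of 1.62, 1.42, 1.41 and 2.23 with enalapril, against 2.04, 1.96, 2.34 and 2.33 with vehicle. Enalapril 4 alone reached the vehicle range: the change was -0.50 ± 0.19 (adjusted p = 0.118), and without that array the gene was called (adjusted p = 0.0103). The fit without enalapril 4 called 26.1% of all genes. Sult1e1, the oestrogen sulfotransferase, differed by -0.69 ± 0.33 (adjusted p = 0.194), with levels of -1.10, -0.93, -0.56 and -0.23 with enalapril, against 0.73, -0.76, -0.40 and 0.35 with vehicle. Sult1c1 differed by 0.12 ± 0.13 (adjusted p = 0.557). Sult2b1, which makes cholesterol sulfate in the epidermis, had levels of 0.38, 0.12, 0.45 and 0.78 with enalapril, against 0.49, 0.49, 0.74 and 0.35 with vehicle, lying over each other (-0.09 ± 0.15, adjusted p = 0.727).

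The 34 genes that could not be tested were 24 well above background on no array and 10 on 1 to 3 arrays. They included 10 Cyp2 and 7 Ugt2 genes. Most of these scattered detections came from 2 vehicle arrays. The untested genes were detected 0, 1, 1 and 2 times on the enalapril arrays, against 4, 8, 2 and 0 times on the vehicle arrays. Their median level was -8.45, -8.39, -8.43 and -8.42 with enalapril, against -6.59, -6.99, -8.31 and -8.05 with vehicle. Vehicle 1 and vehicle 2 thus read higher than the other 6 arrays for these untested genes. The dimmest of 5 equal classes of tested genes, with mean levels from -7.11 to -3.93, held 21 of the members, among them Ces2, Cyp2j11 and Cyp2c55. Among vehicle arrays, vehicle 4 was highest for Ces2 (-4.82), Cyp2j11 (-4.57), Cyp3a44, Cyp4a12 and Ugt2b34, and vehicle 3 for Cyp2c55 (-7.12) and Cyp3a41. Vehicle 1 was highest for Ces6 (-4.41), Ces7 (-5.39), Cyp2a4, Cyp2a5, Cyp2c37, Cyp2u1, Cyp3a11, Cyp3a16, Cyp26a1, Cyp27b1 and Sult1c1. For Cyp2c66, Cyp2d10 and Cyp2d22 it was vehicle 2. These are all 21 members of that class, some of them named after their values were seen. Of all tested genes in the dimmest of 5 equal classes of mean level, 17% were called, 266 higher and 382 lower, with a median change of -0.12. The brightest class had 18.2% called, 28 higher and 668 lower, with a median of -0.19, and the 3 classes between had 10.5% to 13.5% called. The part of this dim-end difference in the changes of dim genes was not tested.

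Genes that regulate, feed or neighbour these enzymes were read from lists. Of 31 regulators tested, 7 fell and 1 rose, beside 9.85% and 4.32% of all genes. The falls included Dbp, Tef and Hlf, clock-controlled factors that bind the D-box and drive detoxification genes in mouse liver. Dbp had levels of 1.07, 2.78, 2.98 and 2.93 with enalapril, against 4.65, 4.91, 4.53 and 5.32 with vehicle, every enalapril array being lower. The change was -2.41 ± 0.42 (adjusted p = 0.0139). Tef had levels of -0.30, 0.46, 0.68 and 0.73 with enalapril, against 1.53, 1.38, 1.58 and 1.70 with vehicle (-1.15 ± 0.22, adjusted p = 0.0169). Both were lowest on enalapril 1. Hlf fell by 0.88 ± 0.20 on the log2 scale (adjusted p = 0.0260). The nuclear receptors Rxrg (-0.55 ± 0.14, adjusted p = 0.0378) and Rarb (-0.52 ± 0.13, adjusted p = 0.0389) fell too. Of others, named after their values were seen, Ppard fell (-0.46 ± 0.13, adjusted p = 0.0476) and Rxra rose (0.37 ± 0.11, adjusted p = 0.0493). Nr1i2, the pregnane X receptor that controls Cyp3a genes in liver, was well above background on no array, and Nr1i3, the related receptor of Cyp2b genes, on 2. In fits with an array left out, Dbp and Tef kept their calls in all 8, while Hlf lost its call in 5 and Rxrg and Rarb in 6, with adjusted p up to 0.0965.

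Of 21 electron donors and cofactor genes tested, 4 fell and none rose, beside 9.85% and 4.32% of all genes. They were the mitochondrial ferredoxins Fdx2 (-0.55 ± 0.11, adjusted p = 0.0179) and Fdx1 (-0.43 ± 0.11, adjusted p = 0.0402), Ugp2, which makes UDP-glucose (-0.34 ± 0.09, adjusted p = 0.0431), and Slc35b2, the carrier of the sulfate donor (-0.38 ± 0.10, adjusted p = 0.0440). Fdx1 passes electrons to Cyp11a1 and the other mitochondrial P450s. Por, the reductase of the microsomal P450s, had levels of 4.10, 4.08, 4.06 and 4.40 with enalapril, against 4.41, 4.61, 4.32 and 4.40 with vehicle. Enalapril 4 alone reached the vehicle range (-0.28 ± 0.11, adjusted p = 0.136), and without it Por was called (adjusted p = 0.0329), as were 26.1% of all genes. Fdx2 lost its call without vehicle 1 or 2, and the other 3 kept theirs only without enalapril 4, with adjusted p up to 0.115 in the remaining fits.

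Among 18 other esterases and amidases tested, 4 fell and none rose, beside the same 9.85% and 4.32%, Ces1e being one of the 4. Cmbl, a hydrolase known in humans to activate the prodrug olmesartan medoxomil, had levels of 1.01, 1.12, 1.03 and 1.44 with enalapril, against 1.98, 1.79, 2.04 and 1.87 with vehicle. The groups stood well apart (-0.77 ± 0.12, adjusted p = 0.0118), and the call held in all 8 fits with an array left out. Bphl, known in humans to activate valacyclovir, differed by -0.47 ± 0.10 (adjusted p = 0.0247) and Ache, the acetylcholinesterase, by -0.86 ± 0.22 (adjusted p = 0.0351), both called lower. Bphl kept its call in 2 of 8 fits with an array left out and Ache in 1, with adjusted p up to 0.09. Of 12 genes for P450s, glycosyltransferases, sulfotransferases and related enzymes with other kinds of names, 2 fell, beside 9.85% of all genes: Ptgis, a P450 that makes prostacyclin (-1.22 ± 0.29, adjusted p = 0.0308), and Ugt3a1 (-0.69 ± 0.17, adjusted p = 0.0314). Ptgis kept its call in 2 of those 8 fits and Ugt3a1 in 1, with adjusted p up to 0.0804. Of 19 transporters tested, 2 fell, a share near the 9.85% of all genes: Slc47a1, which exports organic cations (-0.98 ± 0.21, adjusted p = 0.0239), and Slc15a2, a peptide carrier (-0.76 ± 0.22, adjusted p = 0.0499). Slc47a1 kept its call in 4 fits and Slc15a2 in 1, with adjusted p up to 0.114. The 3 hepatocyte markers tested of 6 measured gave 1 call, beside 9.85% of all genes called lower and 4.32% higher. It was the plasma protein gene Ahsg (named, like Alb, after its value was seen), which fell (-1.31 ± 0.21, adjusted p = 0.0118). The albumin gene Alb differed by -0.01 ± 0.39 (adjusted p = 0.989).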

How the data were processed

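Spot intensity on a linear scale was deposited in the scanner files, made with Agilent Feature Extraction 9.1.3.1 per the file headers (9.1 in the submitters' processing notes). Per the file headers, background subtraction and spatial detrending were done array by array, with no scaling between arrays. Flags of 0 or 1 in the deposited files, such as well above background, are other values, used here to filter. Values in the deposited series matrix are on a log2 scale and equal the uncentred log2 processed intensity.

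Spots flagged as outliers were removed, spots of a probe were averaged, and 47 of 41174 probes with no unflagged spot on some array were dropped. Each array's 75th percentile was subtracted on the log2 scale. Current symbols came from RefSeq's GRCm38.p6 table: 22951 probes matched by accession, 6659 by symbol and 3096 by synonym, 2024 kept the file's name and 6444 stayed unnamed. Tests used limma 3.58.1 in R 4.3.3 (lmFit and eBayes, two-sided, Benjamini-Hochberg adjustment over 19100 genes), with the group as the only term, and the pipeline was tested on simulated data. The number of arrays, 4 per group, limits the precision. The labels describe the samples of a group as separate, but do not say whether each came from its own mouse, so the p-values measure the spread between these samples.

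Genes named were every gene called, every carboxylesterase, the 3 smallest p-values per family, a fixed set of skin and vitamin genes, and up to 6 called genes per pathway list. Any other gene is said to be named after its values were seen. One gene of a pathway list is not reported here. The genes, lists, tests and alternatives were chosen with earlier results of these data known. The alternatives were normexp correction (offset 50, and repaired where a local background exceeded 2 times its spot), quantile normalization, median centring, centring on 10 E1A control probes, the series matrix values, other filters, other probe rules, array weights, robust estimation with an intensity trend, an adjusted p under 0.10, the replicate number as a block, and each array left out.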

Additional observations from a re-analysis of the deposited data

Results flagged for a closer look

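Among 55 named genes in 2 groups of 4 arrays, 8 of 110 checks found an array whose gap to the nearest other array made up most of the group's range, and chance gives about 1 in 20. One concerned a member of the enzyme families: Cyp3a25 stood at -0.577 on vehicle 1, against -1.28 to -1.42 on the other vehicle arrays. Of the pathway genes, Dbp was at 1.07 on enalapril 1, below 2.78 to 2.98 on the other enalapril arrays. On enalapril 4, Slc35b2 read 3.34 (3.01 to 3.04 on the others) and Por 4.4 (4.06 to 4.1 on the others). Fdx1 read 2.43 on vehicle 2 (2.54 to 2.56 on the others), and Ptgis -3.22 on vehicle 1 (-4.05 to -3.94 on the others). Vehicle 4 read -4.31 for Ugt3a1 (-4.78 to -4.73 on the others) and -2.59 for Slc15a2 (-3.35 to -3.23 on the others).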

How the results depend on the processing

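Slide and scan could not be fitted as blocks, because each held 1 group. Leaving out each array in turn gave 1 to 3 members called higher and 0 to 5 lower, with a median change of -0.1272 to 0.0145. The 5 lower came without enalapril 4, where 26.1% of all genes were called, against 4.48% to 10.5% in the other such fits. Counts of members called higher and lower follow, with the share of all genes called in brackets, which was 14.2% in the main fit. Counts were 0 and 0 with normexp correction (0%), 3 and 0 with repaired normexp (10.4%) and 3 and 0 with quantile normalization (10%). They were 2 and 1 with median centring (10.1%), 1 and 0 with E1A centring (2.02%), and 1 and 4 in the series matrix (10.5%). With no filter on dim probes they were 2 and 3 (5.39%), and with all probes of a gene averaged 2 and 2 (10.2%). With an intensity trend and robust estimation they were 5 and 0 (15.8%), with array weights 6 and 7 (31.1%), and at an adjusted p under 0.10 they were 6 and 3 (23.8%). The members' median was 0.4854 with normexp, 0.0854 with its repaired form and -0.4349 in the series matrix, beside 0.1377, -0.0087 and -0.4481 for all genes. Of all genes, 0 were called with normexp in either direction. The cause was not tested in these cases.

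Same-numbered arrays correlated at -0.159, 0.0478, 0.146 and -0.0200 in their deviations from the group means, which showed no pairing by number. So few arrays, on slides that differ between the groups, cannot exclude a pairing. With the replicate block, 3 members were called higher and 0 lower, and 609 of all genes were called in either direction. Of the alternatives other than leaving out an array, Cyp1b1 and Cyp1a1 kept their calls in 10 of 15, Cyp2j11 in 7 and Ces2 in 8. These counts include the adjusted p under 0.10, which is the main fit at a looser threshold, so no call can be lost there.

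Signs turned with normexp for Ces2 (0.7258), Ces6 (0.7465), Ces5 (0.4205), Ces7 (0.8713), Cyp27b1 (0.5853), Cyp3a44 (0.8671), Cyp3a16 (0.8009), Cyp4f16 (0.0445), Cyp4f13 (0.0194), Cyp26a1 (0.6974), Cyp2r1 (0.3922), Rarb (0.2043), Ces1e (0.5293), Ache (0.4216), Ptgis (0.3151), Ugt3a1 (0.5629) and Slc15a2 (0.288). With repaired normexp they turned for Ces2 (0.042), Ces6 (0.0252), Ces7 (0.1526), Cyp3a44 (0.121) and Cyp3a16 (0.0854). In the series matrix, whose values are not centred, they turned for Ces3 (-0.0844), Cyp7b1 (-0.0687), Cyp17a1 (-0.2616), Cyp4a12 (-0.0073), Ugt1a6b (-0.2345), Ugt1a1 (-0.2476), Sult1c1 (-0.2472), Cyp20a1 (-0.2927), Ugt2b34 (-0.2879), Cyp26b1 (-0.1969), Cyp2b19 (-0.2836), Cyp27a1 (-0.2957) and Cyp4f39 (-0.0789). Cyp2j11 (-0.4228) and Cyp2j13 (-0.3402) turned when a gene's probes were averaged, and Cyp27a1 (-0.00038) with E1A centring. With an array left out, changes crossed 0 for Ces7 (-0.4908 to 0.0366), Cyp3a16 (-0.4581 to 0.0965), Cyp17a1 (-0.0796 to 0.3617), Ugt1a1 (-0.00299 to 0.3043), Sult2b1 (-0.2028 to 0.0151), Ugt2b34 (-0.2154 to 0.5252), Cyp2b19 (-0.0237 to 0.1614) and Cyp27a1 (-0.0671 to 0.1981).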
